A study of Homo sapiens with 10 samples.

Results

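The genes described here encode 8 proteases, or protease subunits, of mitochondrial quality control and the disaggregase CLPB, which were given by symbol and matched to the Ensembl gene identifiers of the count data through GENCODE 29. All 9 were found among the 63677 gene identifiers and all 9 passed the filter on low counts, which left 16756 genes for testing. RS4;11 is an established cell line of acute lymphoblastic leukemia of B-cell precursors, and venetoclax (VEN) is a small molecule inhibitor of the apoptosis regulator BCL-2. The samples are 10 cultures of RS4;11, numbered 1 to 5 in each of 2 groups. Those called VENins grew under VEN at rising doses until they tolerated it. By the study's methods they then stayed under VEN without a break, and the drug was washed off before analysis. Those called VENsens, still sensitive to VEN, were kept with its solvent DMSO. The groups therefore differ in ongoing exposure as well as in sensitivity, and these cannot be told apart here. RNA-Seq gave 1 library per line, so that each replicate is a separately grown line of 1 parental cell line. The comparison asks which transcripts differ between insensitive and sensitive lines.

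Libraries held 38491516 to 52960365 reads, of which 20631907 to 28323643 were counted on genes. Of the 12 B-cell precursor markers checked, 11 averaged at least 1 CPM (counts scaled to the size of the library). IGLL1 led them with 610 to 885 CPM, while CD24 was at 0 in every library. Reads were counted on an older genome build than the one its name was matched to. Whether reads of CD24 could be counted there was not tested, so its 0 does not show that the cells lack it. All 5 markers of KMT2A-rearranged leukemia averaged at least 1 CPM. By the mean over libraries, 0 of 6 T-cell markers reached 1 CPM, the highest being CD3E at 0.649 to 1.05 CPM, with CD8A at 0. Myeloid markers reached it by the same measure in 3 of 8, with CSF1R the highest at 6.16 to 11.3 CPM and S100A8 at 0. Of 5 stromal markers COL1A1 alone averaged at least 1 CPM, at 1.93 to 3.36 CPM, and DCN and LUM were at 0. The summed myeloid markers ranged from 14.6 to 18.1 CPM over VENsens lines and from 14.6 to 19.7 CPM over VENins lines. Of the 5 myeloid markers tested between the groups, 1 had a log2 fold change above 0, CSF1R with 0.23, and their median was -0.17. In bulk RNA, a different share of cells with a transcript and a different amount of it per cell cannot be told apart.

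A pair of libraries stood apart from the rest of their groups. VENsens line 2 held the highest or the lowest value of the 5 VENsens lines in 58.1% of all tested genes, and VENins line 5 did so among the VENins lines in 58.0%. In the other 8 libraries this share was between 28.7% and 46.4%. Among the 9 genes described here, VENsens line 2 was at an extreme in 7 and VENins line 5 in 6. For the 9 genes, their ratios, the lists and the genes named for the smallest p of a list, a leave-out range therefore gives the lowest and highest value reached when lines of each number were left out in turn. A trend-free value is the log2 fold change, or a list median of it, with trends in transcript length and GC content taken out.

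Mitochondria keep their proteins in working order through proteases assigned to separate compartments. In the intermembrane space CLPB dissolves protein aggregates, and in the inner membrane OMA1, YME1L1, the AFG3L2 and SPG7 subunits of the m-AAA protease, and the rhomboid protease PARL cut or degrade membrane proteins. In the matrix LONP1 and the complex of the unfoldase CLPX with the peptidase CLPP remove damaged proteins. OMA1 and YME1L1 both cleave OPA1, the GTPase that shapes the cristae from which cytochrome c is released in apoptosis, and CLPB is known for its part in cristae structure and VEN response in acute myeloid leukemia.

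None of the 9 genes was called between VENins and VENsens lines. With edgeR's quasi-likelihood test and Benjamini-Hochberg adjustment over all 16756 tested genes, 0 of 9 were higher and 0 of 9 lower at an adjusted p under 0.05, where the share of all tested genes was 0.0358% higher and 0.161% lower. DESeq2 also called 0 of the 9, with or without the line number in the model, beside 217 and 739 of all 16756 genes. These calls over all genes hold for the lists below as well. At an unadjusted p under 0.05, 0 of 9 were higher and 1 of 9 lower, beside 7.79% and 8.38% of all tested genes. The fitted log2 fold changes of the 9 genes ran from -0.13 to 0.09 with a median of -0.013, and 3 of 9 were above 0. Over all tested genes the median was 0.0035 and 51.1% were above 0. By the 95% intervals, the farthest change that the data still allowed for any of the 9 was 0.80-fold at the lower end, in CLPB, and 1.17-fold at the upper end, in CLPP. The median of the 9 had a leave-out range of -0.065 to 0.014 and a trend-free value of -0.033.

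**Figure D1:**
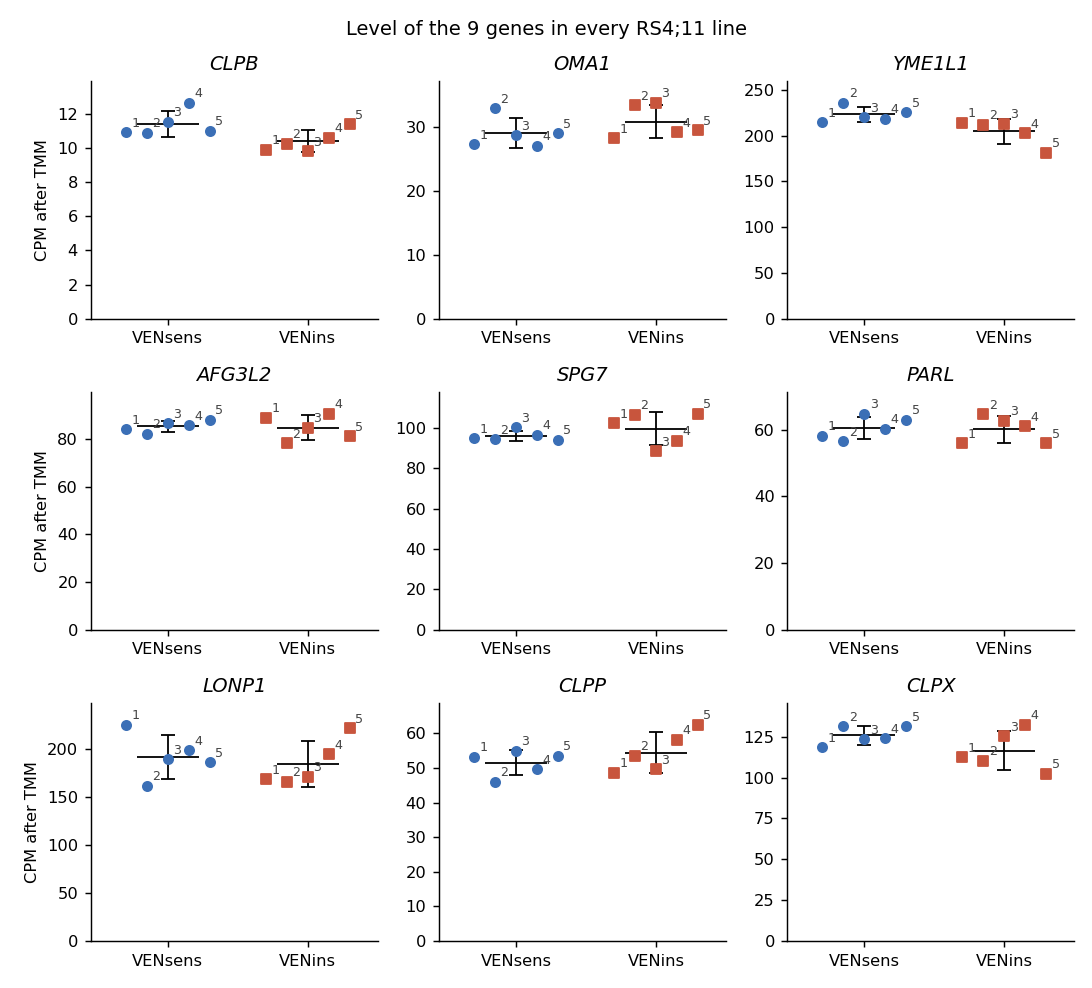
Level of each of the 9 genes in CPM after TMM scaling (y axis, from 0) in the 5 VENsens lines (circles) and 5 VENins lines (squares), with line numbers; horizontal bars and whiskers are the mean and SD over 5 lines. YME1L1 alone had groups that do not overlap, with VENins values of 182 to 214 CPM under VENsens values of 215 to 236 CPM.

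CLPB is the ATP-driven disaggregase of the intermembrane space, where it keeps HAX1 and other proteins soluble. Its gene (ENSG00000162129) lies on the minus strand of chromosome 11, between positions 72285495 and 72434680 of GRCh38. Its level was 10.9, 10.9, 11.6, 12.7 and 11.0 CPM in VENsens lines 1 to 5 and 9.91, 10.3, 9.80, 10.6 and 11.4 CPM in VENins lines 1 to 5. Of the VENins lines, 4 lay under the lowest VENsens value, and line 5 lay among the VENsens lines, so that the groups overlap. Mean levels were 11.4 ± 0.744 CPM (SD, n = 5) over VENsens lines and 10.4 ± 0.649 CPM (SD, n = 5) over VENins lines. The log2 fold change was -0.13 (SE 0.08, 95% interval -0.31 to 0.05), with an adjusted p of 0.454 in edgeR's quasi-likelihood test. CLPB rests on 211 to 328 counts per library, for which counting alone gives a coefficient of variation of 6.01% in VENsens and 6.36% in VENins lines. The observed coefficients were 6.52% and 6.24%, so that the lines of a condition differed by about as much as counting error. Its leave-out range was -0.18 to -0.10 and its trend-free value -0.033.

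Promoters are shown for CLPB and for the genes whose levels varied most between lines or ran against each other, described further on. Entries of 7 of the 9 genes, all but YME1L1 and CLPP, were matched in RefSeq (GRCh38.p14), each 300 bases long from 250 before to 50 after a transcript start. Both strands were searched for CCGGAAG (ETS factors), GCATGCGC (core of NRF1 sites), CACGTG (E-box), CCAAT (NF-Y) and TGATGNAA (ATF4 elements). Capitals mark the matches and each sequence is written 5′ to 3′ on the strand of its gene.
CLPB, chr11:72434482-72434781, minus strand: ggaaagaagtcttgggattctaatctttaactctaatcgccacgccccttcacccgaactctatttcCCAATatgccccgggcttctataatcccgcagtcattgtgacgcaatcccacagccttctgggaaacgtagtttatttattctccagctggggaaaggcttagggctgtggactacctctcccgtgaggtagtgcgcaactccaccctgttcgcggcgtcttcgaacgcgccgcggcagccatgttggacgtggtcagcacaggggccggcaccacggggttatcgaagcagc
LONP1, chr19:5720403-5720702, minus strand: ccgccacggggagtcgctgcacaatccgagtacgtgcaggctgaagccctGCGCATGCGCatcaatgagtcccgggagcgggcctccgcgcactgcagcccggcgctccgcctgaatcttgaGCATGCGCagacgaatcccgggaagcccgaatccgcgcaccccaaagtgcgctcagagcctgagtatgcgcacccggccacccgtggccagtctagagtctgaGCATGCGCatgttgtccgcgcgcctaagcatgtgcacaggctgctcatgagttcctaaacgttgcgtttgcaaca
SPG7, chr16:89508138-89508437, plus strand: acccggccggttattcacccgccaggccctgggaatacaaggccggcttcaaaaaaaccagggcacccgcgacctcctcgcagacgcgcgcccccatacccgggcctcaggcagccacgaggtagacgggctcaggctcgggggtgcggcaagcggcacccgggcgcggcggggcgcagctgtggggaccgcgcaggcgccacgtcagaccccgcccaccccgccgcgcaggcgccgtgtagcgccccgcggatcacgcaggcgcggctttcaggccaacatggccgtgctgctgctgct
CLPX, chr15:65185293-65185592, minus strand: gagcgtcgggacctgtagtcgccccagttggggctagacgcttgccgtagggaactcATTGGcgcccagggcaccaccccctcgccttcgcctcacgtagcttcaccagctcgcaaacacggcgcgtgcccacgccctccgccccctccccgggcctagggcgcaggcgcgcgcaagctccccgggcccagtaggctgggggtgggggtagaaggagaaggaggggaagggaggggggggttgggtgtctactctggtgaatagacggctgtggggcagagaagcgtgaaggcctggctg

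The window of CLPB held 1 CCAAT, 183 bases before the start, and that of CLPX held 1 on the opposite strand, 193 bases before the start. CCAAT was present in 34.6% of the 35116 promoters of the same length. The LONP1 window held 4 matches to the NRF1 core, 1 pair of which overlap as both strands of a single stretch, where 3.05% of all promoters held at least 1. LONP1 has another RefSeq start with its own window, in which 1 CCGGAAG and 2 CACGTG were found, against 10.3% and 7.26% of all promoters. PARL had 1 CCGGAAG, and the windows of OMA1, AFG3L2 and SPG7 had 0 of these motifs. TGATGNAA was in none of the 9 windows of the 7 genes and in 3.62% of all promoters. The GC content was 55.7% in CLPB and 63.7% to 76.0% in the other windows, with a median of 58.7% over all promoters. These matches describe the letters of the windows only.

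YME1L1 is the ATPase of the i-AAA protease, which faces the intermembrane space and degrades or cuts OPA1, PRELID1 and TIMM17A. The gene (ENSG00000136758) lies on the minus strand of chromosome 10, positions 27110112 to 27155266 of GRCh38. Its level was 214.9, 236.1, 220.3, 218.5 and 225.9 CPM in VENsens lines 1 to 5 and 214.1, 212.0, 213.0, 202.4 and 181.5 CPM in VENins lines 1 to 5. Every VENins value lay under every VENsens value, but line 1 of both groups stood only 214.1 against 214.9 CPM apart. YME1L1 was 1 of 9 genes lower without overlap and 0 of 9 were higher without overlap, beside 2.3% of all tested genes lower and 2.36% higher. When libraries were scaled by their size alone, the YME1L1 groups overlapped. MASTL shares 6.0% of the exon bases of YME1L1, and reads there may be split between both genes or not be counted.

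The mean of YME1L1 was 223 ± 8.27 CPM (SD, n = 5) over VENsens lines and 205 ± 13.7 CPM (SD, n = 5) over VENins lines. The log2 fold change was -0.13 (SE 0.06, 95% interval -0.25 to -0.0084). YME1L1 was lower in 5 of 5 comparisons of same-numbered lines, which follows from the groups not overlapping. Of the 16756 tested genes, 1116 were lower and 1275 higher in 5 of 5 such comparisons. Lines of the same number were not more alike than others, with correlations of centred levels of -0.10 to 0.03 against -0.16 to 0.22. Because the numbers did not pair the libraries, all such counts, here and below, are description only. Its p of 0.0375 in edgeR's quasi-likelihood test ranked 2268 of 16756 and gave an adjusted p of 0.277, so the difference did not pass. VENins line 5 was the lowest of all 10 lines, and without the lines numbered 5 the log2 fold change was -0.08. Without the lines numbered 2, among which VENsens line 2 was the highest of all, it was -0.12. The leave-out range was -0.16 to -0.080 and the trend-free value -0.11.

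OMA1, the stress-activated metalloprotease that cuts OPA1 and DELE1, is on the minus strand of chromosome 1 (ENSG00000162600; GRCh38 positions 58415384 to 58546802). VENsens lines 1 to 5 held 27.4, 33.0, 28.8, 27.1 and 29.1 CPM, and VENins lines 1 to 5 held 28.2, 33.5, 33.9, 29.2 and 29.5 CPM. Line 2 was high in both groups and line 3 in the VENins group alone, and the groups overlap across most of their range. The log2 fold change was 0.09 (SE 0.06, 95% interval -0.05 to 0.22), with an adjusted p of 0.539 in edgeR's quasi-likelihood test. OMA1 was higher in 5 of 5 comparisons of same-numbered lines, as were 1275 of the 16756 tested genes. The leave-out range was 0.048 to 0.10 and the trend-free value 0.057. Of the exon bases of OMA1, 6.9% are shared with DAB1.

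Because OMA1 and YME1L1 cleave the same substrate, their ratio was taken within each library. On the log2 scale of CPM it was -2.97, -2.84, -2.93, -3.00 and -2.95 in VENsens lines 1 to 5 and -2.92, -2.66, -2.65, -2.79 and -2.62 in VENins lines 1 to 5. Of the VENins lines, 4 were above every VENsens line, and line 1 was below VENsens line 2. The mean was -2.94 ± 0.06 (SD, n = 5) for VENsens and -2.73 ± 0.13 (SD, n = 5) for VENins lines, a difference of 0.21. A two-sided exact permutation test over the 10 libraries gave p = 0.0159, where the smallest p possible is 0.00794. Adjusted over the 4 ratios examined, the exact permutation p was 0.0635, so that the ratio did not pass the threshold. The ratio was higher in 5 of 5 comparisons of same-numbered lines, and the leave-out range of the difference was 0.18 to 0.25.

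Differences in the other 3 ratios did not pass either test. PARL to CLPB, a protease and its substrate, was 0.12 higher on the log2 scale in VENins lines with an adjusted exact permutation p of 0.243 and a leave-out range of 0.080 to 0.21. CLPX to CLPP, the partners of the ClpXP complex, differed by -0.19 with an adjusted exact permutation p of 0.243, and VENins line 5 had the lowest ratio, 0.71, while the other 9 lines had 1.04 to 1.51. That difference had a leave-out range of -0.28 to -0.095, the latter without the lines numbered 5. SPG7 to AFG3L2, the subunits of the m-AAA protease, differed by 0.06 with an adjusted exact permutation p of 0.484 and a leave-out range of -0.00051 to 0.11. Its SD was 0.05 in VENsens and 0.18 in VENins lines, where lines 2 and 5 lay at 0.44 and 0.40 and lines 3 and 4 at 0.06 and 0.04. This difference in spread was not tested.

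**Figure D2:**
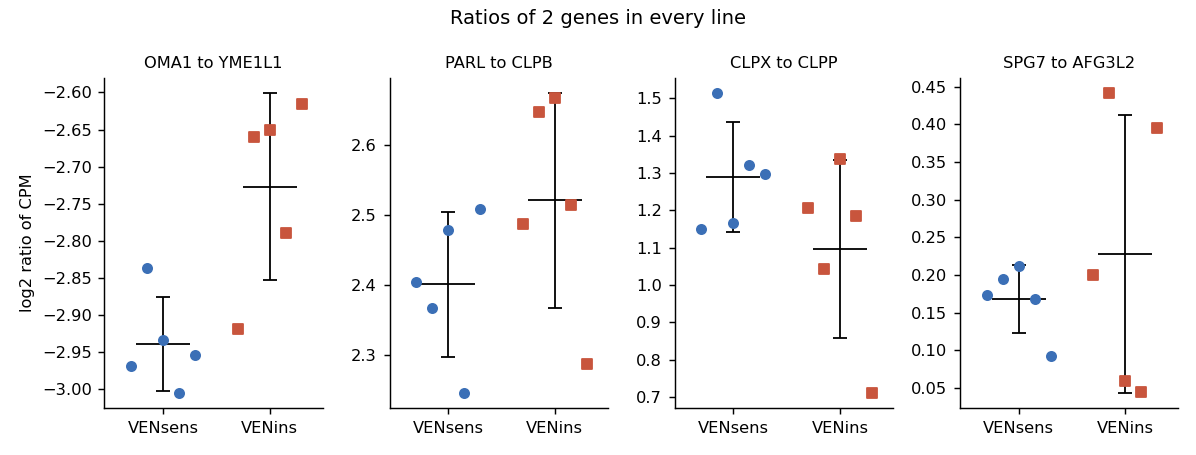
log2 ratio of the CPM of 2 genes (y axis, a separate range for each panel) in 5 VENsens lines (circles) and 5 VENins lines (squares), with mean and SD. The OMA1 to YME1L1 ratio was at most -2.84 in VENsens lines and at least -2.92 in VENins lines, and the values of SPG7 to AFG3L2 spread wider in VENins lines, from 0.04 to 0.44.

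AFG3L2 and SPG7 form the m-AAA protease, which acts on the matrix side of the inner membrane, for instance in the maturation of MRPL32. AFG3L2 ranged from 82.3 to 88.2 CPM over VENsens lines and from 78.4 to 90.7 CPM over VENins lines. Its log2 fold change of -0.01 (SE 0.06) had an adjusted p of 0.947 in edgeR's quasi-likelihood test, a leave-out range of -0.034 to 0.015 and a trend-free value of -0.014. The pseudogenes AFG3L1P and AFG3L2P1 carried 8552 counts over the 10 libraries, beside 20443 on AFG3L2, and 12.6% of its exon bases are shared with TUBB6, and reads from such shared stretches may be split between genes. SPG7 held 94.9, 94.2, 100.2, 96.5 and 94.0 CPM in VENsens lines 1 to 5 and 102.3, 106.5, 88.4, 93.5 and 106.9 CPM in VENins lines 1 to 5. VENins lines fell on both sides of the VENsens values, with lines 1, 2 and 5 above and lines 3 and 4 below all of them. The log2 fold change of SPG7 was 0.05 (SE 0.06), with an adjusted p of 0.755 in edgeR's quasi-likelihood test. Its leave-out range was 0.014 to 0.11 and its trend-free value 0.13.

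PARL, the rhomboid protease that cuts PINK1, PGAM5 and CLPB, ranged from 56.5 to 64.8 CPM over VENsens lines and from 56.0 to 64.7 CPM over VENins lines. These ranges nearly coincide, and its log2 fold change was -0.01 (SE 0.06, 95% interval -0.14 to 0.12), with an adjusted p of 0.945 in edgeR's quasi-likelihood test. The leave-out range was -0.065 to 0.027 and the trend-free value -0.040. AFG3L2 and PARL had the largest p of the 9 genes, 0.842 and 0.834 before adjustment.

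In the matrix, LONP1 degrades oxidized proteins and the DNA packaging factor TFAM. Its gene (ENSG00000196365) is on the minus strand of chromosome 19, positions 5691834 to 5720572 of GRCh38. VENsens lines 1 to 5 held 225.5, 161.9, 189.5, 199.1 and 186.3 CPM, and VENins lines 1 to 5 held 168.6, 166.4, 171.5, 194.8 and 222.0 CPM. The highest values were those of VENsens line 1 and VENins line 5, and the lowest was that of VENsens line 2. Between lines of the same number the log2 difference ran from -0.42 in line 1 to 0.25 in line 5. The fitted log2 fold change was -0.06 (SE 0.08, 95% interval -0.22 to 0.10; adjusted p of 0.745 in edgeR's quasi-likelihood test). It was 0.03 without the lines numbered 1 and -0.14 without those numbered 5, the ends of its leave-out range, and the trend-free value was -0.055.

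CLPP, the barrel-shaped peptidase of the matrix, held 53.3, 46.0, 55.0, 49.7 and 53.5 CPM in VENsens lines 1 to 5 and 48.7, 53.5, 49.6, 58.2 and 62.5 CPM in VENins lines 1 to 5. VENins lines 4 and 5 exceeded every VENsens line, and the remaining VENins lines did not. The log2 fold change was 0.08 (SE 0.07), with an adjusted p of 0.635 in edgeR's quasi-likelihood test. A leave-out range of 0.040 to 0.13 and a trend-free value of 0.034 were found. CLPX, which unfolds proteins and feeds them to CLPP, held 118.5, 131.5, 123.5, 124.2 and 131.6 CPM in VENsens lines 1 to 5 and 112.5, 110.4, 125.3, 132.3 and 102.3 CPM in VENins lines 1 to 5. VENins lines 1, 2 and 5 lay under the VENsens range, while VENins line 4 was the highest of all 10 lines. Its log2 fold change of -0.11 (SE 0.07, 95% interval -0.26 to 0.03) had an adjusted p of 0.417 in edgeR's quasi-likelihood test, a leave-out range of -0.17 to -0.053 and a trend-free value of -0.087.

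Levels between genes were compared as CPM per kilobase, first by the union of all annotated exons. In VENsens lines (SD, n = 5) LONP1 was the highest at 37.9 ± 4.52 CPM per kilobase, followed by YME1L1 at 30.4 ± 1.13, PARL at 26.7 ± 1.49, CLPX at 23.1 ± 1.04 and CLPP at 22.6 ± 1.60. AFG3L2 at 12.9 ± 0.340, OMA1 at 7.82 ± 0.633, SPG7 at 2.67 ± 0.0716 and CLPB at 0.918 ± 0.0599 CPM per kilobase came below. These values are not corrected for reads across exon junctions, which would make up from 11.0% of reads in CLPB to 47.9% in PARL by the annotation, so that the order of genes close in level may rest on this loss. LONP1 overlapped with YME1L1 over the lines, and CLPX with CLPP, while the other neighbours in this order did not overlap. VENins lines had LONP1 at 36.3 ± 4.67 and CLPB at 0.837 ± 0.0522 CPM per kilobase, and the order was the same except that CLPP and CLPX changed places. The exon union of SPG7 spans 36008 bases, against 3359 in its longest protein-coding transcript. By its longest transcript of any kind, 6369 bases, SPG7 was at 15.1 ± 0.405 CPM per kilobase in VENsens lines, the seventh of the 9, below AFG3L2 and overlapping with OMA1. By the longest protein-coding transcript, a length added after the values were seen, it was at 28.6 ± 0.768 CPM per kilobase, the fifth of the 9, overlapping with CLPX. By both of these lengths LONP1 stayed the highest at 59.5 ± 7.10 and CLPB the lowest at 1.12 ± 0.0732 CPM per kilobase, the latter with a transcript of 10170 bases.

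The genes differed in how far lines of the same condition lay apart. Over all 5 lines LONP1 varied most, with an SD of log2 CPM of 0.17 in VENsens and 0.18 in VENins lines. The median of 1000 genes of like level was 0.07 and 0.09. LONP1 lay at 7.398, 7.379, 7.423 and 7.606 in VENins lines 1 to 4 and at 7.795 in line 5, so that its VENins SD leans on line 5. No SD was repeated with a line left out, and the rank of LONP1 in VENins lines may rest on line 5. For LONP1, counting alone gives a coefficient of variation of 1.46% in VENsens lines against 11.9% observed. At the other end, AFG3L2 and SPG7 had an SD of 0.04 each in VENsens lines, under the 0.07 of genes of like level. In VENins lines SPG7 had 0.12, CLPP 0.15 and CLPX 0.15, against 0.09, 0.10 and 0.09 for genes of like level. The median SD of all tested genes was 0.12 in VENsens and 0.14 in VENins lines. CLPB, at 0.09 in both groups, was under the 0.12 and 0.15 of genes of like level.

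**Figure D3:**
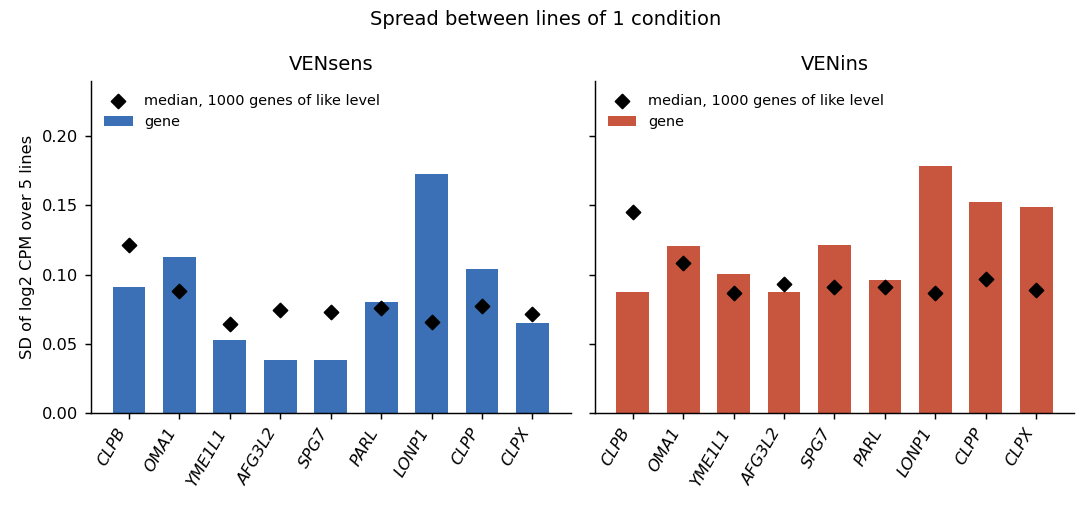
SD of log2 CPM over the 5 lines of a condition (y axis) for each gene, VENsens on the left and VENins on the right; diamonds are the median SD of the 1000 tested genes closest in level. LONP1 stood at 0.17 and 0.18 over all 5 lines, above its diamonds at 0.07 and 0.09, and its VENins value leans on line 5.

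The levels of some genes varied together over the 10 libraries, and these relations are given as a description. The libraries share their parental line and belong to 2 conditions. Of 36 pairs among the 9 genes, SPG7 and CLPX had the strongest relation, with a Pearson r of -0.825 and a Spearman rho of -0.891 (n = 10 libraries). About the means of the conditions r was -0.819, and with the 2 libraries farthest from the SPG7 median left out it was -0.589. YME1L1 and CLPP had an r of -0.807 and a rho of -0.552 over the same 10 libraries. Without the 2 libraries farthest from the YME1L1 median, VENins line 5 and VENsens line 2, r was -0.323, so that this relation rests on them. LONP1 and CLPP had an r of 0.669, a rho of 0.527 and an r of 0.594 without the 2 libraries farthest from the LONP1 median. LONP1 and YME1L1 had an r of -0.555 over all libraries and -0.927 about the means of the conditions, but 0.0646 without the 2 libraries farthest from the YME1L1 median.

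**Figure D4:**
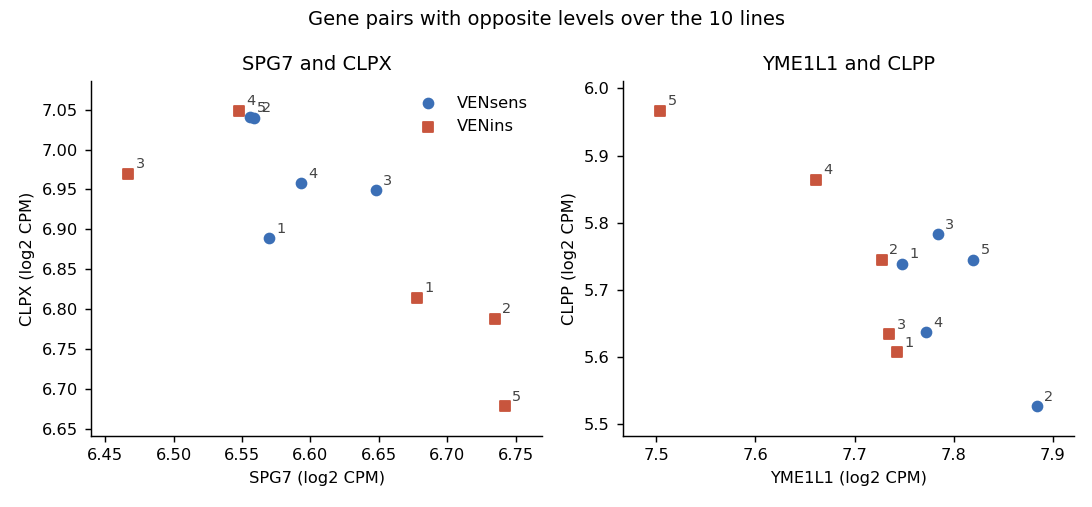
log2 CPM of SPG7 against CLPX (left) and of YME1L1 against CLPP (right) in 5 VENsens lines (circles) and 5 VENins lines (squares), with line numbers. SPG7 and CLPX had an r of -0.825 over 10 libraries, and in the right panel VENins line 5 lies at the low end of YME1L1 with the highest CLPP.

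By Pearson correlation of log2 CPM over the 10 libraries, CLPB was most like PHETA1 (r = 0.938), GTF3C1 (r = 0.913) and ATG2A (r = 0.909) among 11137 protein-coding genes with a mean of at least 1 CPM. PHETA1 takes part in endosomal traffic, GTF3C1 belongs to the RNA polymerase III factor TFIIIC, and ATG2A transfers lipids in autophagy. YME1L1, the gene with the smallest p of the 9, was closely matched by OSBP (r = 0.980) and METTL7A (r = 0.979). An r over 0.9 was found for 3 genes with CLPB and 97 with YME1L1, and an r under -0.9 for 5 and 71. All 10 libraries entered these r, among them VENsens line 2 and VENins line 5, and they were not repeated without these 2. PHETA1, GTF3C1 and ATG2A had log2 fold changes of -0.19, -0.16 and -0.16, with adjusted p of 0.363, 0.197 and 0.312 in edgeR's quasi-likelihood test. OSBP and METTL7A had -0.12 and -0.19, with adjusted p of 0.305 and 0.146 in the same edgeR quasi-likelihood test. All of these genes were picked by r over both conditions, so a direction shared with CLPB or YME1L1 follows in part from the choice.

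Substrates and partners of these proteases were examined as a list of 18 genes, all tested. With edgeR's quasi-likelihood test, 0 were called higher and 0 lower at an adjusted p under 0.05, beside 0.0358% and 0.161% of all tested genes. At an unadjusted p under 0.05, 2 of 18 were higher and 0 lower, beside 7.79% and 8.38% of all tested genes. DESeq2 called 0 of 18 when modelling line numbers, and MAIP1 alone when not, with 739 calls among 16756 genes, of which 4550 had no adjusted p in DESeq2 and could not be called. Of the 18 log2 fold changes 12 were above 0 and the median was 0.016, beside 51.1% above 0 and a median of 0.0035 for all tested genes. The median of the 18 had a leave-out range of -0.0073 to 0.057 and a trend-free value of 0.0062. MAIP1, which assists assembly of the mitochondrial calcium uniporter with the m-AAA protease, had 18.0 ± 0.741 CPM (SD, n = 5) over VENsens lines and 21.0 ± 1.18 CPM (SD, n = 5) over VENins lines. MAIP1 was 1 of 18 genes higher without overlap between the groups, and 0 of 18 were lower, beside 2.36% and 2.3% of all tested genes. Its log2 fold change was 0.22 (SE 0.07, leave-out range 0.19 to 0.25, trend-free 0.20), with an adjusted p of 0.160 in edgeR's quasi-likelihood test. TIMM17A, an import channel subunit degraded by YME1L1, had a log2 fold change of 0.13 (SE 0.06), higher in 5 of 5 comparisons of same-numbered lines and with an adjusted p of 0.291 in edgeR's quasi-likelihood test. Its leave-out range was 0.087 to 0.17 and its trend-free value 0.11. PGAM5, a phosphatase cut by PARL, had 0.11 (SE 0.06, leave-out range 0.073 to 0.13, trend-free 0.12), with an adjusted p of 0.368 in edgeR's quasi-likelihood test.

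The substrates OPA1, HAX1 and DELE1 were singled out for their roles after their values were seen, and do not stand for the list. OPA1 averaged 142 ± 8.03 CPM over VENsens lines and 135 ± 11.1 CPM over VENins lines (SD, n = 5), a log2 fold change of -0.07 whose adjusted p was 0.646 in edgeR's quasi-likelihood test. HAX1, the client of CLPB, had 0.04, and DELE1, which carries the OMA1 signal to the cytosol, had -0.06.

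Among 12 other mitochondrial proteases 6 of 12 log2 fold changes were above 0, with a median of 0.0003 (leave-out range -0.020 to 0.0090, trend-free 0.024). With edgeR's quasi-likelihood test 0 were called, and 0 by DESeq2. At an unadjusted p under 0.05, 1 of 12 was lower and 0 higher, beside 8.38% and 7.79% of all tested genes. METAP1D, the mitochondrial methionine aminopeptidase, had 21.5 ± 2.51 CPM (SD, n = 5) over VENsens lines and 18.2 ± 2.40 CPM (SD, n = 5) over VENins lines. Its log2 fold change of -0.24 (SE 0.10) had an adjusted p of 0.261 in edgeR's quasi-likelihood test, a leave-out range of -0.35 to -0.12 and a trend-free value of -0.21. IMMP1L and IMMP2L, the subunits of the inner membrane peptidase, had 0.09 and 0.08, with adjusted p of 0.653 and 0.614 in edgeR's quasi-likelihood test. IMMP1L had a leave-out range of 0.026 to 0.135 and a trend-free value of 0.046, and IMMP2L 0.045 to 0.11 and 0.051.

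Mitochondrial chaperones, a list of 8 genes, had log2 fold changes with a median of 0.0015 (leave-out range -0.015 to 0.027, trend-free -0.0024), 4 of 8 above 0. With edgeR's quasi-likelihood test 0 were called, and 0 by DESeq2. At an unadjusted p under 0.05, 2 of 8 were higher and 0 lower, beside 7.79% and 8.38% of all tested genes. GRPEL1, the nucleotide exchange factor of mitochondrial HSP70, had a log2 fold change of 0.13 (SE 0.06), and HSPE1, the co-chaperonin of HSPD1, had 0.18 (SE 0.08). Both were higher in 4 of 5 comparisons of same-numbered lines, with adjusted p of 0.275 and 0.290 in edgeR's quasi-likelihood test. GRPEL1 had a leave-out range of 0.10 to 0.17 and a trend-free value of 0.13, and HSPE1 0.083 to 0.23 and 0.15. DNAJA3, a J-domain co-chaperone, had -0.06 (leave-out range -0.085 to -0.013, trend-free -0.034) with an adjusted p of 0.651 in edgeR's quasi-likelihood test.

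Mitochondrial stress signalling was represented by 7 genes, of which 5 of 7 had a log2 fold change above 0 and the median was 0.094. With edgeR's quasi-likelihood test 0 were called, and 0 by DESeq2 with or without the line number. At an unadjusted p under 0.05, 1 of 7 was higher and 0 lower, beside 7.79% and 8.38% of all tested genes. The median had a leave-out range of 0.049 to 0.15 and a trend-free value of 0.081. DDIT3, the stress-induced transcription factor also known as CHOP, had 57.1 ± 4.62 CPM (SD, n = 5) over VENsens lines and 65.2 ± 5.16 CPM (SD, n = 5) over VENins lines. Its log2 fold change was 0.19 (SE 0.07, leave-out range 0.14 to 0.24, trend-free 0.16), higher in 5 of 5 comparisons of same-numbered lines, with an adjusted p of 0.190 in edgeR's quasi-likelihood test. The transcription factor ATF5 had 0.18 (SE 0.08) and ASNS, the asparagine synthetase and a target of ATF4, had 0.13 (SE 0.07), with adjusted p of 0.317 and 0.410 in edgeR's quasi-likelihood test. ATF5 had a leave-out range of 0.068 to 0.28 and a trend-free value of 0.16, and ASNS 0.064 to 0.18 and 0.12. Without a filter on low counts, where 664 of 32884 genes were called, ATF5 had an adjusted p of 0.0292 in edgeR's quasi-likelihood test.

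**Figure D5:**
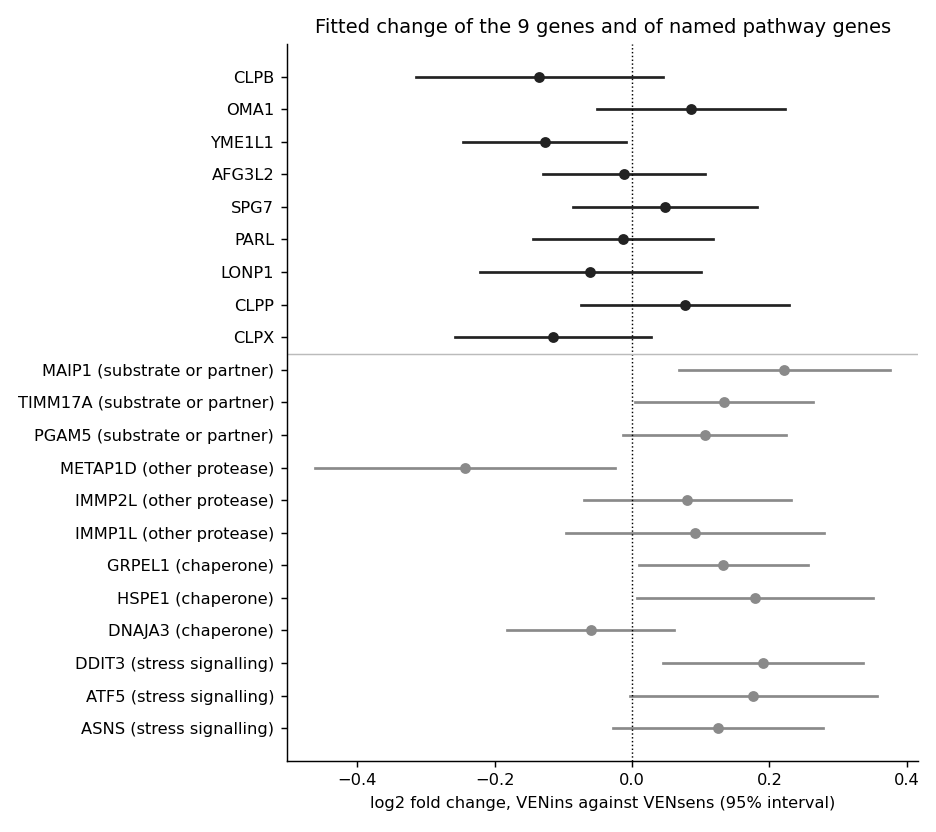
Fitted log2 fold change of VENins against VENsens lines (x axis) with its 95% interval (bars), for the 9 genes (black) and for 12 named genes of the pathway lists (grey). The intervals of 8 of the 9 genes include 0 and that of YME1L1 ends at -0.0084.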

How the data were processed

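Total RNA of 10 RS4;11 lines was made into 1 unstranded library each. The authors deposited raw counts per gene, made per the labels with Bowtie2 2.3.5.1, SAMtools 1.9 and HTSeq 0.9.1 on hg19. The strand setting is not given in the sources used here. Bowtie2 does not split reads over introns, so that reads across exon junctions are underrepresented. Low alignment quality removed 24.6% to 26.2% of reads, 9.39% to 10.2% did not align, 7.29% to 7.78% lay outside genes and 3.69% to 3.98% were ambiguous.

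Counts were filtered (filterByExpr, minimum count 10), scaled by TMM and tested with edgeR 4.0.16 (R 4.3.3), with line number and condition as terms. Standard errors came from the F statistic. DESeq2 1.42.0 was an alternative. Log2 CPM used a prior count of 2. The edgeR p-values set a difference against the spread between separately grown lines that remains after the line-number term. The exact permutation tests of the ratios had no such term. Names and positions came from GENCODE 29 (GRCh38). The steps were tested on simulated counts. The 9 genes and the lists were chosen with earlier results of these data known. Named genes are the 9, in each list those called or the 3 with the smallest p, and the 3 genes most like CLPB and YME1L1, of which 1 is not reported here. OPA1, HAX1 and DELE1 were added for their roles after their values were seen. Figures used matplotlib 3.10.9.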

Additional observations from a re-analysis of the deposited data

Results flagged for a closer look

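Of 50 groups of 5 lines checked for a value far from the others, 1 was past Dixon's critical value of 0.71, where 2.5 are expected by chance. PGAM5 was at 65.8 CPM in VENsens line 2 while the other 4 VENsens lines held 75.8 to 78.3 CPM, a gap of 0.812 of the range.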

How the results depend on the processing

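The 9 genes were called under none of 12 alternatives, with a lowest adjusted p of 0.136 (YME1L1, trends in length and GC content taken out). CLPB, OMA1, YME1L1, SPG7, CLPP and CLPX kept their direction in all 12. AFG3L2 changed sign without the lines numbered 2 or 5, PARL without 5 and LONP1 without 1. Of 16756 tested genes, 33 were called (6 higher, 27 lower), 149 (49 and 100) with no replicate block, 217 (67 and 150) by DESeq2 with the block (3899 without an adjusted p), 739 (358 and 381) by DESeq2 without it (4550 without an adjusted p), 664 (231 and 433) of 32884 with no filter on low counts and 142 (67 and 75) with trends in length and GC content taken out, an alternative of the blocked fit. RLE size factors gave 35 and library size alone 44. Leaving out the lines of 1 number gave 6 to 331 of 16739 to 16801 genes (1 to 79 higher, 5 to 252 lower), medians of -0.065 to 0.014 for the 9 genes and -0.0073 to 0.057 for substrates. DESeq2 without the block called 1 substrate higher (MAIP1, adjusted p 0.0296), and the fit without a filter called 1 stress signalling gene (ATF5, adjusted p 0.0292). With library size alone 0 of the 9 were lower without overlap. The cause was not tested. Line numbers did not pair the libraries, since the correlations of same-numbered deviations were -0.103 to 0.028, and the line number was kept because the study's methods describe a paired analysis. Levels per kilobase with coding or longest transcripts, the former added after seeing the data, moved for all 9 genes. Among the 9 genes, CLPB, with 211 to 328 counts per library, is the most limited by depth.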
